A study of Homo sapiens with 8 samples.

Results

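PC3, a human prostate cancer cell line established from a bone metastasis, was compared between its docetaxel resistant and its docetaxel sensitive variant in bulk RNA-seq libraries. The libraries were chosen by their titles, which put 2 in PC3 resistant and 2 in PC3 sensitive, so they make up 4 of the 8 libraries of the series, and the other 4 are the same variants of DU145, another prostate cancer line. The medium held 10 nM docetaxel for the resistant variant and only the solvent DMSO, at 0.1%, for the sensitive one. The parental line came from ATCC, and both variants were grown in RPMI 1640 with fetal bovine serum and penicillin-streptomycin. The resistant strain was made as described in earlier work. A week in medium without the drug is described for the single-cell samples of the study. The sources used here do not say whether the cultures for bulk RNA had one too, or whether the resistant strain is a clone. Since no label ties the 2 replicates to cultures of their own, p-values measure only their spread, which may be technical.

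Docetaxel is a taxane. It binds the β-tubulin of microtubules, keeps them from disassembling, and so arrests dividing cells in mitosis and leads to their death. Cells selected in a taxane are known to raise drug efflux pumps, above all the P-glycoprotein encoded by ABCB1, and to change their tubulin isotypes, their survival pathways and their epithelial or mesenchymal state. PC3 itself is known for growing in bone.

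The 4 libraries held 34531919 and 31685148 counts in the sensitive group and 43045127 and 38565475 in the resistant group, and mitochondrial transcripts took 1.18% to 2.07% of them. Genes known to be deleted in PC3 were near the floor in all 4 libraries, with STAT3 and CTNNA1 at 0.308% to 0.647% of their mean in DU145. The epithelial markers KRT8, KRT18 and EPCAM were expressed, and of the prostate markers KLK3 and KLK2 had 0 counts in all 4. Of the neuroendocrine markers, INSM1 had 0 counts, CHGA had 1 count in all, and SYP was at 1.49 to 1.91 CPM (counts scaled to the size of the library). Markers of other cell types were measured as well. The 4 leukocyte markers summed to 0.670 and 0.908 CPM in the sensitive and 1.53 and 2.63 in the resistant libraries, with CD3E at 0. The 3 endothelial markers summed to 6.76 and 7.07 against 12.9 and 24.7 CPM, nearly all of it PECAM1, while CDH5 and VWF had at most 13 counts in any library. The 4 fibroblast markers summed to 23.9 and 35.0 against 24.7 and 31.5 CPM, nearly all of it COL1A1. COL1A1, at 22.9 to 32.7 CPM, and the upper value of PECAM1, 24.4 CPM, lay within the 21.5 to 51.6 CPM of EPCAM. Of these markers CD14, CD79A, PECAM1 and PDGFRA passed the edgeR test as higher in resistant cells, and LUM as lower, with 25 and 56 counts in the sensitive and 0 in the resistant libraries. PDGFRA and LUM also passed with each library left out, while CD79A and PECAM1 did not pass without resistant 2 (adjusted p = 0.0652 and 0.055) and CD14 passed only without sensitive 2. The part of such cells in the results was not tested. In bulk RNA, fewer cells with a transcript and less of it per cell cannot be told apart.

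ABCB1, the gene of the P-glycoprotein pump, was at 94.8 and 84.4 CPM in the resistant libraries against 2.19 and 3.47 in the sensitive libraries (log2 fold change 4.99 ± 0.23, adjusted p = 1.76e-07). Values after ± are standard errors of the log2 fold change, and each group had n = 2 libraries.

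Over 20238 genes tested, at an adjusted p of 0.05, 3755 were higher in resistant than in sensitive PC3 cells, or 18.6%, and 3441 were lower, or 17%. The higher genes moved further. Of them, 1526 changed by at least 2 on the log2 scale and 508 by at least 5, against 495 and 100 of the lower genes. The lower genes were more abundant. In the most abundant 25% of genes 14.8% were higher and 27.3% lower, and in the second least abundant 25% of genes 27.6% were higher and 13.2% lower. The higher genes took 9.89% of the reads of the sensitive and 18.75% of those of the resistant libraries, while the lower genes went from 32.6% to 18.7%. Of the resistant reads, the genes called higher took 11.6% without sensitive 1 and 10.8% without sensitive 2, and those called lower 9.38%, 10.6% and 11.2% without sensitive 1, sensitive 2 and resistant 2. The number of calls depended on each library. It was 2349 higher and 2004 lower without sensitive 1, 2404 and 1983 without sensitive 2, 3061 and 2480 without resistant 1, and 2659 and 2156 without resistant 2.

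**Figure D1:**
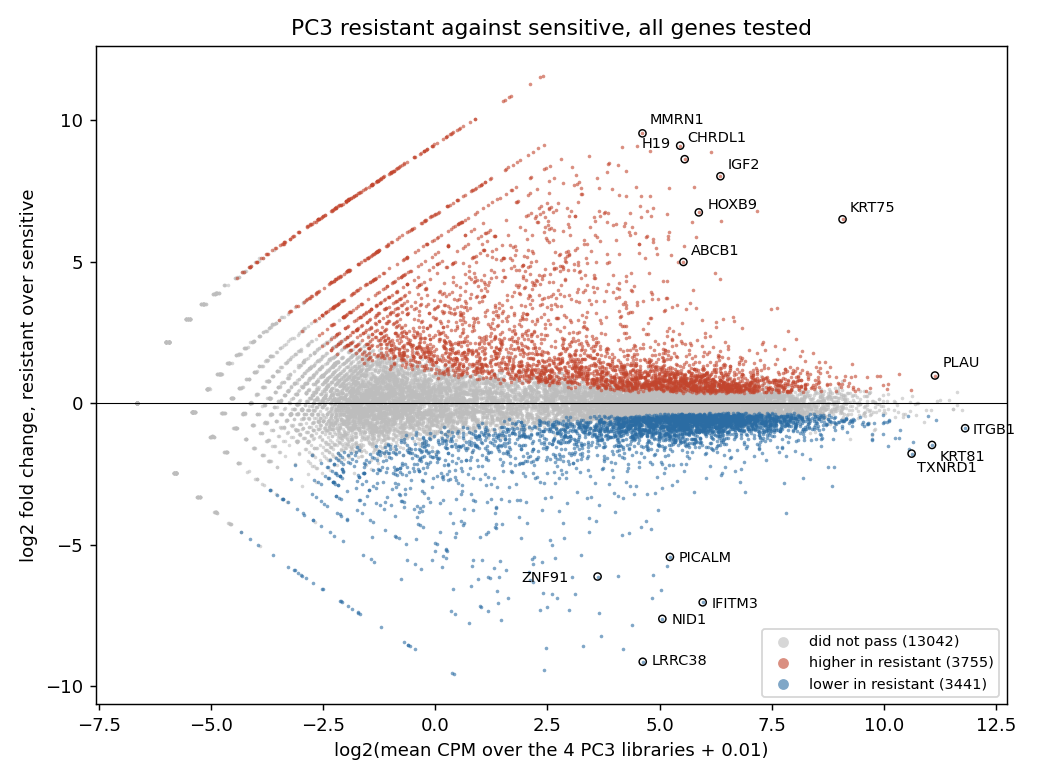
Each point is a gene tested, placed by its mean level in the 4 PC3 libraries (horizontal axis, log2 of CPM plus 0.01) and its log2 fold change, resistant over sensitive (vertical axis). Red points are the 3755 genes higher and blue points the 3441 genes lower at an adjusted p under 0.05, and circled genes are named in the text. Large rises run up to moderate levels, and among abundant genes KRT81, TXNRD1 and ITGB1 lie below 0 and PLAU above it.

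The genes with the largest rises were nearly silent in sensitive PC3 cells. MMRN1, a secreted multimerin of platelets and endothelium, was at 45 and 53 CPM in the resistant libraries against 0.0609 and 0.0649 in the sensitive libraries (log2 fold change 9.53 ± 0.33, adjusted p = 4.22e-08). CCND2, a D-type cyclin that drives entry into S phase, was at 45.1 and 44.7 CPM in the resistant libraries against 0.0914 and 0.0649 in the sensitive libraries (log2 fold change 9.10 ± 0.48, adjusted p = 4.01e-07). Both were named by a rule that asks for groups without overlap, so the gap between their groups is part of the rule. Both were at most 0.254 CPM in DU145. Several of the rising genes encode secreted signals or their inhibitors. CHRDL1, a secreted antagonist of bone morphogenetic proteins, was at 82.2 and 93.3 CPM in the resistant libraries against 0.183 and 0.130 in the sensitive libraries (log2 fold change 9.10 ± 0.31, adjusted p = 4.22e-08). SMOC1, a matrix protein that also modulates these proteins, rose by 8.92 ± 0.46 on the log2 scale, from 0.183 and 0.0324 to 43 and 66.5 CPM. IGF2, the insulin-like growth factor of fetal tissue, went from 0.762 and 0.486 to 153 and 173 CPM (log2 fold change 8.01 ± 0.35, adjusted p = 1.51e-07). Its imprinted neighbour, the noncoding RNA H19, was at 87.3 and 101 CPM in the resistant libraries against 0.152 and 0.324 in the sensitive libraries (log2 fold change 8.62 ± 0.67, adjusted p = 5.71e-06). Of these 4, SMOC1 had the resistant libraries furthest apart, at 43 and 66.5 CPM.

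Other leading rises encode surface and neuronal proteins. NCAM1, the neural cell adhesion molecule, went from 0.0914 and 0.0324 to 28.9 and 42 CPM (log2 fold change 9.06 ± 0.49, adjusted p = 4.91e-07). ADGRL2, a latrophilin receptor, went from 0.579 and 0.486 to 107 and 108 CPM (log2 fold change 7.65 ± 0.21, adjusted p = 1.71e-08). EPHB1, an ephrin receptor, had 3 counts in the sensitive and 1808 in the resistant libraries together, a ratio of 456 with a counting interval of 156 to 2213. The calcium-binding calretinin CALB2 rose by 8.48, EYA2, a coactivator of homeobox factors, by 8.42, and RCAN2, an inhibitor of calcineurin, by 8.20 on the log2 scale. TCN1, a vitamin B12 carrier, rose too (log2 fold change 8.86 ± 0.83, adjusted p = 2.42e-05), but its resistant libraries stood far apart, at 44.7 and 236 CPM against 0.244 and 0.357. PLD5, LARGE and NUDT11 complete the 15 largest rises, with log2 fold changes of 8.17, 7.94 and 7.62. Reads of NUDT11 and of its near copy NUDT10 may be split or shared, so the pair is uncertain gene by gene.

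By a rule on levels alone, with at most 0.1 CPM in both libraries of a group and at least 5 CPM in both of the other, 49 genes were on only in resistant cells and 7 only in sensitive cells. Of the 49, 45 are protein coding, 7 lie on chromosome X, and 33 were at most 1 CPM in every DU145 library. Beside this, 14816 of the 20238 genes tested are protein coding and 590 lie on chromosome X. How many of all genes were at most 1 CPM in DU145 was not counted. Besides MMRN1, CCND2, NCAM1 and EPHB1 they include RAI2, a retinoic acid induced nuclear protein (from 0.0609 and 0.0973 to 20.9 and 14.4 CPM), TC2N (from 0.0609 and 0.0649 to 18.3 and 16.8 CPM), the choline transporter-like SLC44A5 (from 0.0914 and 0.0649 to 15.7 and 18.5 CPM), LRCH2, the secreted ISM1 and the lectin CLEC2B. CXCR4, the receptor of the bone marrow chemokine CXCL12, is among them too and was picked after its values were seen, with 1 and 0 counts in the sensitive and 398 and 361 in the resistant libraries. The 7 genes on only in sensitive cells include 4 zinc finger genes, ZNF736, ZNF85, ZNF563 and ZNF485, and the neuronal SLITRK4.

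**Figure D2:**
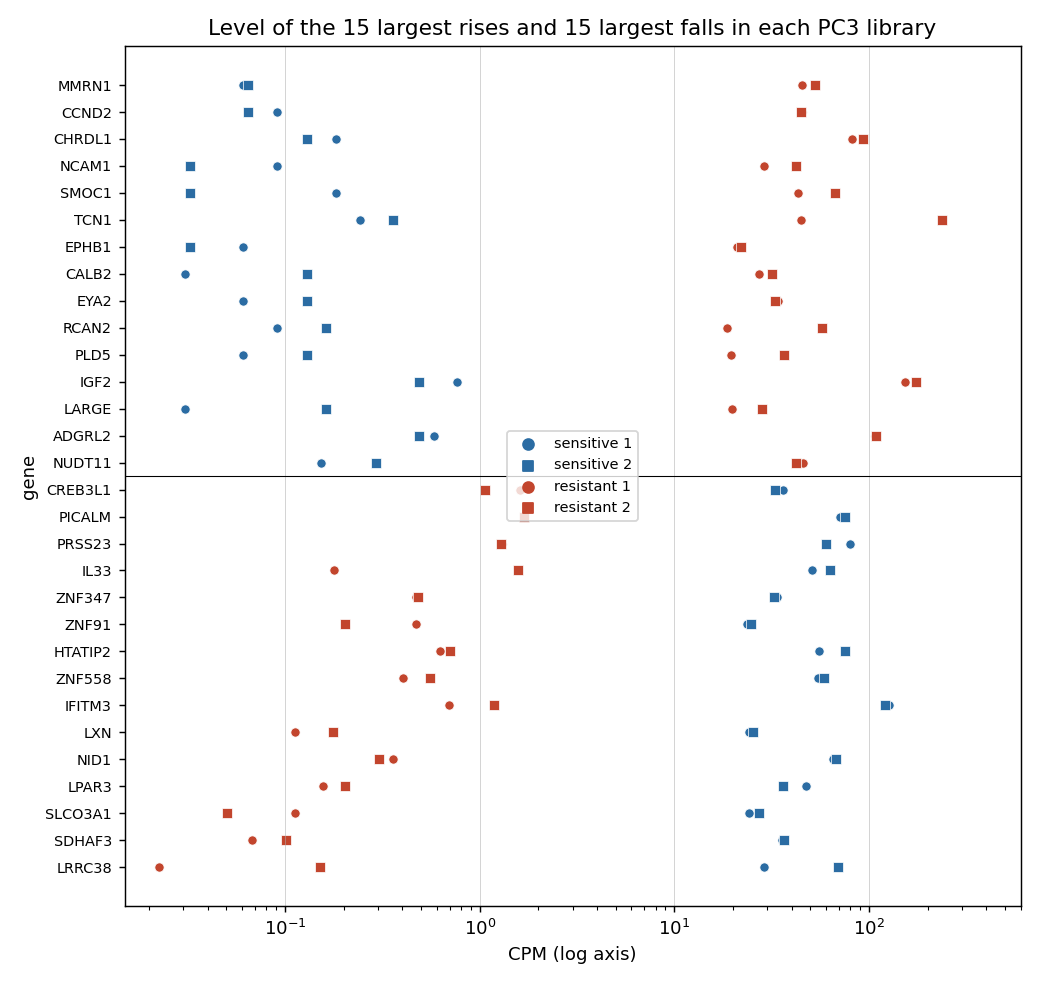
The level in CPM (log axis) of the 15 genes with the largest rises and the 15 with the largest falls by log2 fold change is drawn for each of the 4 PC3 libraries, blue for sensitive and red for resistant. These genes were chosen as not overlapping, with a mean of at least 10 CPM over the 4 libraries, so the gap between colours is part of the rule. The spread to look at is that within a colour, as for TCN1, whose resistant libraries are at 44.7 and 236 CPM.

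The genes with the largest falls were expressed in sensitive cells and close to silent in resistant cells. LRRC38, a subunit of large-conductance potassium channels, fell from 28.7 and 69.7 to 0.0224 and 0.152 CPM (log2 fold change -9.14 ± 0.67, adjusted p = 4.04e-06). SDHAF3, an assembly factor of succinate dehydrogenase, fell from 35.7 and 36.5 to 0.0673 and 0.101 CPM (log2 fold change -8.70 ± 0.26, adjusted p = 1.94e-08). SLCO3A1, an organic anion transporter, fell from 24.3 and 27.3 to 0.112 and 0.0506 CPM (log2 fold change -8.22 ± 0.40, adjusted p = 1.76e-06). All 3 were under 1 CPM in both resistant libraries. Signaling and matrix genes followed. LPAR3, a receptor of lysophosphatidic acid, changed by -7.84, NID1, which links laminin to collagen in basement membranes, by -7.63, and LXN, an inhibitor of carboxypeptidases, by -7.41 on the log2 scale. IFITM3, a membrane protein that blocks virus entry and shares sequence with IFITM2, fell from 126 and 121 to 0.696 and 1.19 CPM (log2 fold change -7.04 ± 0.25, adjusted p = 4.31e-08), HTATIP2 by 6.60, and CREB3L1, a transcription factor of the secretory pathway, by 4.68 on the log2 scale. The alarmin IL33 fell from 51.2 and 63.4 CPM to 0.179 and 1.57 CPM, so its resistant libraries differed from each other, yet both were far under the sensitive ones (log2 fold change -6.06 ± 0.65, adjusted p = 0.000101).

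Of these 15 falls, 3 are zinc finger genes of chromosome 19. ZNF558 fell from 54.6 and 58.7 to 0.404 and 0.556 CPM (log2 fold change -6.88 ± 0.28, adjusted p = 9.09e-08), ZNF347 from 33.7 and 32.7 to 0.471 and 0.480 CPM (log2 fold change -6.11 ± 0.25, adjusted p = 9.34e-08) and ZNF91 from 23.7 and 24.6 to 0.471 and 0.202 CPM (log2 fold change -6.13 ± 0.38, adjusted p = 1.41e-06). ZNF91 is known to repress the SVA retrotransposons of apes and humans. ZNF85 had 451 and 238 counts in the sensitive and 0 and 1 in the resistant libraries, a ratio of 911 with a counting interval of 163 to 36019. Such genes are members of KRAB zinc finger clusters with similar sequences, and the sources used here do not say how reads with several matches were handled. The promoters of 3 of them are shown, since these are the windows whose genes went silent. They are RefSeq sequences on GRCh38.p14 from 250 bases before to 50 after the gene start, 5′ to 3′ on the gene's strand, with each CpG dinucleotide in capitals.
ZNF91 (chr19:23395422-23395721, minus strand): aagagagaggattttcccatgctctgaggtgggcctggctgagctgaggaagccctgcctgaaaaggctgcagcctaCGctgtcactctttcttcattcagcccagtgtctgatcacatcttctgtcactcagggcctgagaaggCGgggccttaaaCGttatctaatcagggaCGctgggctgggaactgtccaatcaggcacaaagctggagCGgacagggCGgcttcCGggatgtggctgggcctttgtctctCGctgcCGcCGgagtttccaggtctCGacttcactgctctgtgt
ZNF85 (chr19:20923001-20923300, plus strand): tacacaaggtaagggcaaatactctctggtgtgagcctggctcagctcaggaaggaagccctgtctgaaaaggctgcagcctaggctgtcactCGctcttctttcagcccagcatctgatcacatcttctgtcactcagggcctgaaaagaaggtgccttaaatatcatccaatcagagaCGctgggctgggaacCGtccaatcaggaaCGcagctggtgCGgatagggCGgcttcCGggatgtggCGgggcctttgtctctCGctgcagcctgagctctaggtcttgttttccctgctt
ZNF558 (chr19:8832255-8832554, minus strand): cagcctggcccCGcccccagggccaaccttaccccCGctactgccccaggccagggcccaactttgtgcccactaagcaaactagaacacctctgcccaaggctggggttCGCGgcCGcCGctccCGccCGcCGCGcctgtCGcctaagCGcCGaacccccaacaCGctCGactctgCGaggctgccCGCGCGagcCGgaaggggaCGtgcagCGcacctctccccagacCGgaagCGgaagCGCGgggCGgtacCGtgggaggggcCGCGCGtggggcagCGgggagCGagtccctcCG
The motif searched was CG, which reads the same on both strands. The windows hold 11, 9 and 34 CpGs, beside a median of 25 over the 11864 tested protein-coding genes with a promoter in that table, of which 99.4% hold at least 1. The 131 lower ZNF genes with a promoter there had a median of 21 CpGs and the 275 other tested ZNF genes a median of 22. No methylation was measured.

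Losses also fell on neighbouring genes. A search for runs of at least 3 neighbouring protein-coding genes at or under 10% of the sensitive mean, chosen after the values were seen, found 3 runs. On chromosome 11 (85957175 to 86952910 in GENCODE 44) the run holds PICALM, EED, C11orf73, ME3 and PRSS23. PICALM, an adaptor of clathrin-coated pits, fell from 71 and 75.6 to 1.68 and 1.69 CPM (log2 fold change -5.44 ± 0.16, adjusted p = 1.94e-08). EED, the subunit of polycomb repressive complex 2 that binds trimethylated histone H3, fell from 16.3 and 16.4 to 0.224 and 0.228 CPM (log2 fold change -6.16 ± 0.28, adjusted p = 1.76e-07). PRSS23, a secreted serine protease, fell from 79.4 and 60.3 to 1.30 and 1.29 CPM (log2 fold change -5.75 ± 0.22, adjusted p = 7.76e-08). The fall stopped at both ends of the run. On its near side SYTL2, a RAB27 effector, went from 28.1 and 28.4 to 94.7 and 101 CPM (log2 fold change 1.79 ± 0.27, adjusted p = 0.000607), and on its far side FZD4, which overlaps PRSS23, was at 63.8 and 65.6 CPM in the resistant libraries against 92.3 and 65.3 in the sensitive libraries (adjusted p = 0.253). What was left in the resistant libraries was 1.30% to 2.30% of the sensitive mean, and 0.210% to 0.497% of the mean in DU145, where all 5 genes were expressed. The genes known to be deleted in PC3, STAT3 and CTNNA1, had 0.308% to 0.647% of that mean. No DNA was measured, and the cause of the fall was not tested.

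**Figure D3:**
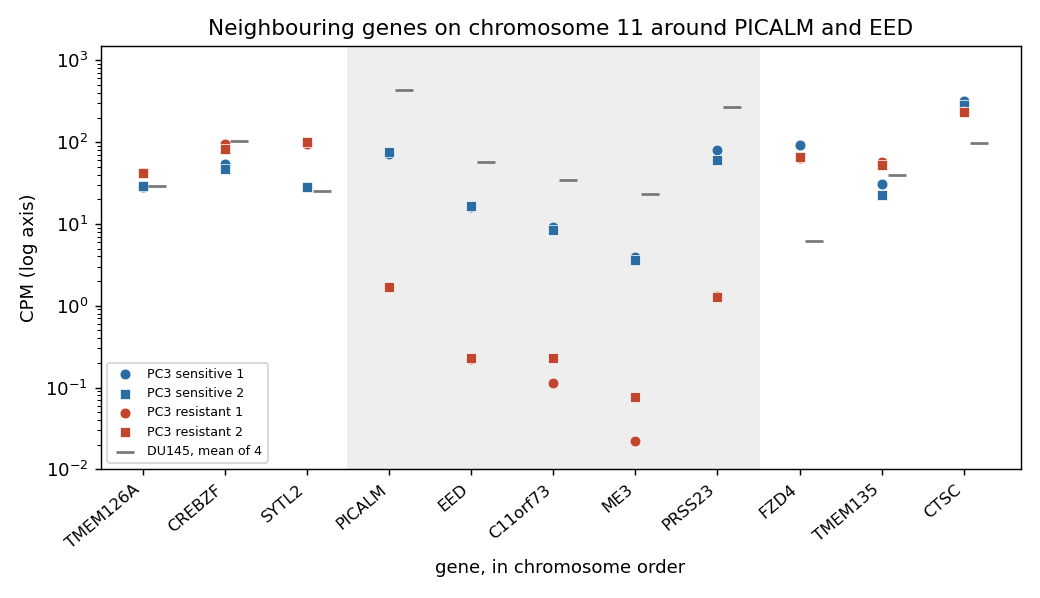
The level in CPM (log axis) of genes in chromosome order around PICALM and EED is drawn for each PC3 library, blue for sensitive and red for resistant, with the mean of the 4 DU145 libraries as a grey dash. The shaded run of 5 genes is at 3.78 to 73.3 CPM on average in sensitive and at 0.0491 to 1.69 CPM in resistant cells, and the genes on both sides are at like or higher levels in resistant cells.

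The other runs of losses are made of zinc finger genes, ZNF239, ZNF485 and ZNF32 on chromosome 10 and ZNF429, ZNF724P and ZNF91 on chromosome 19. Gains formed 10 such runs under the mirrored rule. On chromosome 17 HOXB7, HOXB8 and HOXB9 rose, HOXB9 from 1.04 and 1.14 to 126 and 106 CPM (log2 fold change 6.74 ± 0.32, adjusted p = 2.34e-07), while HOXB13, the prostate homeobox gene of the same cluster, fell from 418 and 344 to 43.2 and 64.2 CPM (log2 fold change -2.83 ± 0.23, adjusted p = 7.82e-06). PRAC1 and PRAC2, small prostate-expressed genes beside HOXB13, changed by -1.36 and -1.64 on the log2 scale. On chromosome 14 the run holds PPP4R4, SERPINA1 and SERPINA5, and on chromosome X a run holds 5 genes, NUDT10 and NUDT11 among them. In all, 127 of 11985 genes were at or under 10% in resistant cells and 598 of 12567 at or under 10% in sensitive cells. With a stricter limit of 5%, also chosen after the values were seen, there were 3 runs of losses and 7 of gains, and with a minimum of 5 CPM 2 and 2.

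Measured by CPM gained or lost rather than by fold, other genes led. Mitochondrially encoded genes were left out of this ranking. Their 13 tested mRNAs summed to 16491 CPM in the sensitive and 10209 CPM in the resistant group, and 2 of them passed as lower and 0 as higher. Integrin β1, ITGB1, the shared partner of many integrins, fell from 4570.0 and 4749.8 CPM in the sensitive libraries to 2192 and 2836 in the resistant libraries (log2 fold change -0.89 ± 0.17, adjusted p = 0.00251). KRT81, a hair keratin whose reads may be shared with KRT86, fell from 2712 and 3622 to 1029 and 1240.2 CPM (log2 fold change -1.48 ± 0.19, adjusted p = 0.000207). TXNRD1, the cytosolic thioredoxin reductase, fell from 2575 and 2291 to 785 and 625 CPM (log2 fold change -1.79 ± 0.17, adjusted p = 2.31e-05). The neuropilin NRP1, a coreceptor of VEGF and semaphorins, and LDHA, the muscle type lactate dehydrogenase, followed with log2 fold changes of -1.39 and -1.23. EIF4G2, ALDH1A3, S100A6 and PLS3 were also among the 10 largest losses of CPM, at -1.23, -0.94, -1.10 and -1.31. The largest gain was that of PLAU, the urokinase plasminogen activator, from 1320.5 and 1719.9 CPM in the sensitive libraries to 3127 and 2838 in the resistant libraries (log2 fold change 0.97 ± 0.17, adjusted p = 0.0014). KRT75, another hair follicle keratin, went from 8.74 and 15 to 872 and 1264 CPM (log2 fold change 6.49 ± 0.31, adjusted p = 2.49e-07). GNAS, the stimulatory G protein α subunit, HAS3, a hyaluronan synthase, and COL6A1, a chain of collagen VI, rose by 1.03, 1.37 and 0.95. TGM2, the tissue transglutaminase, rose by 0.94, and APLP2 and CAPN2 by 0.97 and 0.69 on the log2 scale.

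Among noncoding RNAs, 511 of the 3616 lncRNAs tested were higher and 244 lower. These are 14.1% and 6.75%, both under the 18.6% and 17% over all genes. AFAP1-AS1, an antisense RNA studied in several carcinomas, went from 7.43 and 7.46 to 168 and 144 CPM (log2 fold change 4.38 ± 0.22, adjusted p = 2.95e-07), and SSTR5-AS1 fell from 52 and 24.2 to 1.41 and 1.74 CPM (log2 fold change -4.59 ± 0.37, adjusted p = 8.06e-06). LINC01234 rose by 3.75. The sources used here do not say whether the counting used strand, so reads of an antisense RNA and of its partner gene may be mixed.

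Gene groups were described by how many tested members passed in each direction, beside 18.6% higher and 17% lower over all genes and a median log2 fold change of 0.01 over all genes. Of 31 lists and 40 families named by symbol, 34 held more higher than lower members, 28 more lower than higher, and 9 as many of each. With any of the 4 PC3 libraries left out, 37 to 42 held more higher and 23 to 27 more lower members.

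**Figure D4:**
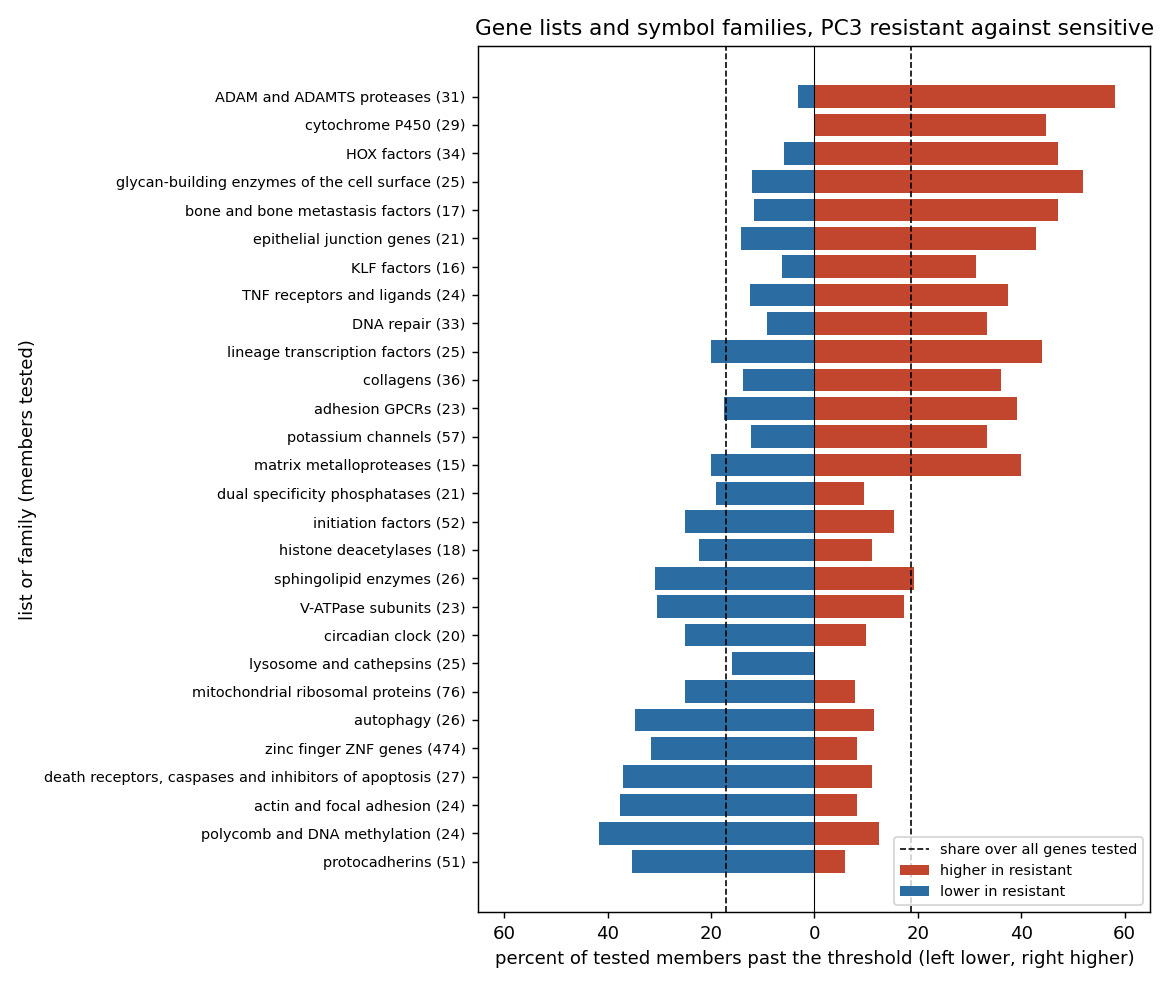
For each list or family with at least 15 tested members, the bars give the percent of tested members higher (red, to the right) and lower (blue, to the left) in resistant cells, and the dashed lines the same over all genes tested, 18.6% and 17%. Shown are the 14 with the largest excess of higher over lower members and the 14 with the largest excess the other way. ADAM and ADAMTS proteases reach 58.1% higher, and polycomb and DNA methylation genes 41.7% lower.

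Junction genes of epithelia were more often higher than lower in resistant cells, and genes of actin and focal adhesion more often lower. Of 21 junction genes tested of 24 listed, 9 were higher and 3 lower. Their median was 0.37, but it was 0.77, 0.06, 0.07 and 0.13 without sensitive 1, sensitive 2, resistant 1 and resistant 2. DSP, the desmoplakin that ties desmosomes to keratin, went from 2.38 and 1.36 to 173 and 155 CPM (log2 fold change 6.45 ± 0.27, adjusted p = 1.12e-07). ESRP1, a splicing factor that keeps epithelial isoforms, went from 0.731 and 0.389 to 60.1 and 50.8 CPM (log2 fold change 6.61 ± 0.47, adjusted p = 3.09e-06). The claudin CLDN4 rose by 2.0 and E-cadherin, CDH1, by 2.56, though CDH1 stayed low, at 6.12 and 4.95 CPM. Plakoglobin JUP and plakophilin PKP3, which are desmosome partners of DSP, fell by 1.10 and 0.90 on the log2 scale. The mesenchymal list had 3 higher and 4 lower of 16 tested of 19 listed. TGFBI, a matrix protein induced by TGF-β, rose by 4.0, while the repressor ZEB2 and vimentin, VIM, fell by 1.70 and 0.72. Of 24 actin and focal adhesion genes, 2 were higher and 9 lower, with a median of -0.32. MYL9, the regulatory light chain of nonmuscle and smooth muscle myosin, fell from 60.7 and 55.6 to 5.61 and 2.83 CPM (log2 fold change -3.78 ± 0.42, adjusted p = 7.72e-05), tropomyosin TPM2 by 1.86 and paxillin PXN by 0.76. The count of 9 was 6 without sensitive 1, and 5 without sensitive 2, without resistant 1 or without resistant 2, and that of 2 was 1 without sensitive 1, sensitive 2 or resistant 1. Myosins, counted as a family by symbol, went the other way, with 11 higher and 7 lower of 28 tested of 39 and a median of 0.85.

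Integrins moved in both directions. Of 26 tested of 30, 9 were higher and 6 lower, and 5 were higher without sensitive 1 or without sensitive 2. The collagen-binding ITGA2 went from 30.4 and 34.6 to 244 and 405 CPM (log2 fold change 3.32 ± 0.24, adjusted p = 3.47e-06) and ITGA1 from 1.10 and 0.649 to 21.9 and 80 CPM (log2 fold change 5.85 ± 0.67, adjusted p = 9.14e-05). ITGB3, the β chain of the vitronectin receptor, went from 3.29 and 3.53 to 29.9 and 106 CPM (log2 fold change 4.32 ± 0.49, adjusted p = 9.16e-05), and the resistant libraries of ITGA1 and ITGB3 differed from each other more than those of ITGA2. ITGB5 and ITGB2 fell by 1.10 and 1.11 on the log2 scale, alongside ITGB1. Collagens had 13 higher and 5 lower of 36 tested of 44, with COL17A1 of hemidesmosomes at a log2 fold change of 3.40 and COL5A2 of fibrils at -2.08.

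Proteases of the ADAM type had the largest share of higher members among the families with at least 15 tested. Of 31 ADAM and ADAMTS genes tested of 39, 18 were higher and 1 lower, which is 58.1% higher, with a median of 1.10. ADAM23 went from 3.50 and 3.89 to 38.1 and 44.3 CPM (log2 fold change 3.48 ± 0.29, adjusted p = 1.1e-05) and ADAMTS3, which cleaves procollagen and proVEGF-C, from 6.15 and 5.16 to 33.2 and 29.7 CPM (log2 fold change 2.47 ± 0.37, adjusted p = 0.000538). The count of 18 was 12 to 17 with each library left out, and the lone lower member did not pass without sensitive 1, sensitive 2 or resistant 1. Of 15 matrix metalloproteases tested of 24, 6 were higher and 3 lower, MMP9 among the former (4.29) and MMP13 among the latter (-2.23), and 1 was lower without sensitive 2, resistant 1 or resistant 2. Enzymes that build glycans were higher as well, 13 of 25 with 3 lower and a median of 0.75. GCNT1, which branches mucin type O-glycans, went from 0.427 and 0.454 to 10.2 and 10.2 CPM (log2 fold change 4.52 ± 0.30, adjusted p = 2.06e-06), and GALNT12, which starts them, from 0.853 and 1.30 to 18.3 and 20.9 CPM (log2 fold change 4.19 ± 0.25, adjusted p = 9.16e-07). HAS2, a hyaluronan synthase, rose by 2.94. Of the 3 lower members 1 passed without sensitive 1 and 0 without sensitive 2.

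Protocadherins, adhesion molecules used by neurons, went the other way. Of 51 tested of 66, 3 were higher and 18 lower, with a median of -1.33, and 13 to 14 were lower with each library left out. PCDHB2 fell from 14.9 and 13.1 to 0.606 and 0.404 CPM (log2 fold change -4.77 ± 0.34, adjusted p = 3.57e-06), while PCDH1, which lies outside the clusters, rose by 4.32. The clustered α and γ genes share their last exons, so reads may be split between members and the count by member is uncertain. Mucins had 0 higher and 5 lower of 9 tested of 17, with 3 lower without sensitive 2, resistant 1 or resistant 2 and 1 higher without resistant 2. By DESeq2, and at an unadjusted p under 0.05 by edgeR, 0 mucins were higher.

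Factors known from bone and bone metastasis were more often higher than lower, 8 of 17 tested of 20 with 2 lower and a median of 1.25, and 8 were higher with each library left out. BMP2, a bone morphogenetic protein, had 0 counts in the sensitive libraries and 118 and 98 in the resistant ones, at least 54.5-fold higher against a floor of 3 counts over the group. BMP6 went from 0.152 and 0.0324 to 8.73 and 9.58 CPM (log2 fold change 6.55 ± 0.42, adjusted p = 1.51e-06), and osteopontin, SPP1, from 0.0609 and 0.195 to 4.02 and 18.6 CPM (log2 fold change 6.45 ± 0.96, adjusted p = 0.000561). Cathepsin K, CTSK, the collagenase of osteoclasts, fell by 1.17. Angiogenic factors moved in both directions, with 8 higher and 6 lower of 21, and 5 higher without sensitive 1. ANGPT1, PGF and VEGFB rose by 4.69, 3.70 and 1.09. FGF2, the basic fibroblast growth factor, fell from 67.2 and 78.5 to 18.6 and 13.8 CPM (log2 fold change -2.17 ± 0.23, adjusted p = 5.5e-05), adrenomedullin, ADM, by 1.94 and VEGFC by 1.75.

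Of 24 chemokine and interleukin genes tested of 25, 7 were higher and 4 lower, and 4 were higher without sensitive 1 or without resistant 2. CXCL5, which attracts neutrophils, rose by 3.91 and IL1A by 2.59, while CSF2, which encodes GM-CSF, fell by 3.11. Of 24 receptor tyrosine kinases tested of 26, 8 were higher and 4 lower. IGF1R, the receptor of IGF2, went from 12.8 and 16.6 to 39.2 and 40.5 CPM (log2 fold change 1.44 ± 0.16, adjusted p = 7.47e-05), and FGFR1 rose by 1.27, while ERBB2 fell from 55.7 and 53.7 to 24.8 and 24.7 CPM (log2 fold change -1.14 ± 0.13, adjusted p = 0.000102). SPRY4, a feedback inhibitor of ERK signaling, fell by 1.89 on the log2 scale.

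Potassium channels rose more often than they fell, and solute carriers did both. Of 57 potassium channel genes tested of 96, 19 were higher and 7 lower, with a median of 0.55. KCNH2, the hERG channel, and KCNA2 had 0 counts in the sensitive libraries and were at least 71.6-fold and at least 56.0-fold higher. The background channel KCNK2 rose by 6.18. Solute carriers were even, with 61 higher and 63 lower of 284 tested of 381, and 36 to 46 higher and 32 to 42 lower with each library left out. The glutamate transporter SLC1A3 went from 1.52 and 0.908 to 114 and 93.6 CPM (log2 fold change 6.41 ± 0.38, adjusted p = 1.06e-06), and SLC7A8, an exchanger of large neutral amino acids, from 0.244 and 0.649 to 21.8 and 51.7 CPM (log2 fold change 6.37 ± 0.54, adjusted p = 1.18e-05).

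In metabolism, cytochrome P450 genes were higher in 13 of 29 tested of 57 and lower in 0, with a median of 1.19, and 11 to 14 were higher with each library left out. By DESeq2, and at an unadjusted p under 0.05 by edgeR, 0 were lower as well. CYP1B1, which hydroxylates estrogens and xenobiotics, went from 0.823 and 0.422 to 18 and 15 CPM (log2 fold change 4.71 ± 0.29, adjusted p = 1.26e-06). CYP2J2, an epoxygenase of arachidonic acid, went from 0.152 and 0.259 to 7.76 and 7.58 CPM (log2 fold change 5.21 ± 0.40, adjusted p = 5.19e-06), and CYP24A1, which inactivates vitamin D, rose by 4.06. Genes of the tricarboxylic acid cycle were split, with 8 higher and 4 lower of 24. MDH2, the mitochondrial malate dehydrogenase, went from 163 and 146 to 597 and 456 CPM (log2 fold change 1.77 ± 0.17, adjusted p = 2.36e-05), and IDH3B and SDHA rose by 1.09 and 1.0, while IDH3G fell by 0.69. The count of 8 was 5 without sensitive 2, and that of 4 was 1, 2 and 1 without sensitive 1, sensitive 2 and resistant 2. Glycolysis had 2 higher and 4 lower of 24, with LDHA and the lactate exporter SLC16A3 (from 380.2 and 413 to 111 and 134 CPM, log2 fold change -1.69 ± 0.26, adjusted p = 0.000673) among the lower and 2 lower without sensitive 1 or without sensitive 2. PHGDH, which opens the serine pathway, went from 75.3 and 64.2 to 287 and 221 CPM (log2 fold change 1.86 ± 0.24, adjusted p = 0.000205), in a list with 3 higher and 1 lower of 20. That list had 5 higher without resistant 2, and 2 and 0 lower without resistant 1 and resistant 2.

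Lipid and degradation genes moved in part. Of 26 sphingolipid enzymes, 5 were higher and 8 lower. UGT8, which makes galactosylceramide, rose by 3.57, and SPHK1, which makes sphingosine 1-phosphate, fell from 97.8 and 119 to 34.2 and 36.3 CPM (log2 fold change -1.62 ± 0.17, adjusted p = 4.91e-05). The higher count was 3, 2 and 3 without sensitive 1, sensitive 2 and resistant 2, and the lower count 5 without sensitive 1. Of 26 autophagy genes, 3 were higher and 9 lower, with 4 lower without sensitive 2. The kinase ULK2 fell by 2.35 and its partner ATG13 by 1.09. The higher count was 0 without sensitive 1 or without resistant 2 and 1 without sensitive 2. Lysosomal genes had 0 higher and 4 lower of 25, cathepsin B, CTSB, among them (-1.12), with 2 lower without sensitive 1, sensitive 2 or resistant 1 and 1 higher without sensitive 2. By DESeq2, and at an unadjusted p under 0.05 by edgeR, 0 lysosomal genes were higher. Ferritin heavy chain, FTH1, fell from 366 and 406 to 146 and 165 CPM (log2 fold change -1.31 ± 0.18, adjusted p = 0.00035). The 17 ATP synthase subunits tested of 19 and the 10 aldo-keto reductases tested of 14 had 0 members past the threshold by edgeR or by DESeq2. At an unadjusted p under 0.05 by edgeR, 4 of the former were higher, and 1 of the latter was higher and 2 were lower.

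Of 21 genes of taxane handling and target tested of 25, 4 were higher and 2 lower, or 19% and 9.52%, beside 18.6% and 17% over all genes. The β-tubulin isotype TUBB2B went from 0.122 and 0.551 to 32.1 and 24.1 CPM (log2 fold change 6.39 ± 0.47, adjusted p = 4.39e-06), the neuronal microtubule protein MAP2 rose by 3.17, and the α-tubulin TUBA4A fell from 125 and 105 to 41.4 and 39.3 CPM (log2 fold change -1.51 ± 0.17, adjusted p = 9.3e-05). Of the 2 lower, 1 passed without sensitive 2. Of 25 p53 target genes tested of 26, 4 were higher and 4 lower in these cells, which are known to lack p53. CDKN1A, FAS and BTG2 rose by 1.27, 1.94 and 1.56, and PHLDA3 and DDB2 fell by 1.66 and 1.03, with 2 lower without sensitive 1, sensitive 2 or resistant 1. Of 27 genes of death receptors, caspases and their inhibitors tested of 28, 3 were higher and 10 lower, with a median of -0.15 that was -0.05 without resistant 1 and -0.26 without resistant 2. The lower ones include an executioner, CASP6 (-1.06), and an inhibitor, XIAP (-0.77). The lower count was 7, 4, 5 and 7, and the higher count 1, 3, 5 and 1, without sensitive 1, sensitive 2, resistant 1 and resistant 2. DNA repair genes had 11 higher and 3 lower of 33, FANCA (1.08) and PRKDC (0.95) among the higher and the helicase ERCC2 (-1.09) among the lower. Here the higher count was 4, 5, 7 and 8 without the same libraries in turn.

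Regulators of transcription changed by family. HOX genes were higher in 16 of 34 tested of 39 and lower in 2, with a median of 0.92, and 10 and 9 were higher without sensitive 1 and without sensitive 2. HOXD13 rose by 6.67 and HOXB3 by 2.09, while HOXA13, like HOXB13, fell (log2 fold change -2.08 ± 0.26, adjusted p = 0.000167). Of 25 lineage transcription factors tested of 30, 11 were higher and 5 lower. FOXA1, a pioneer factor of the prostate lineage, fell from 192 and 171 to 64 and 56 CPM (log2 fold change -1.60 ± 0.18, adjusted p = 9.42e-05), and SPDEF, its luminal companion, from 69.4 and 49.4 to 10.7 and 4.20 CPM (log2 fold change -3.0 ± 0.40, adjusted p = 0.000251). GATA2, FLI1 and SOX9 rose by 2.48, 4.38 and 1.36. RARB, the retinoic acid receptor β, was among 11 higher of 38 nuclear receptors tested of 43, from 0.152 and 0.162 to 26.3 and 34.7 CPM (log2 fold change 7.57 ± 0.51, adjusted p = 2.29e-06), beside 8 lower. The higher count was 6 without sensitive 1 or without sensitive 2, and the lower count 5 without sensitive 2 or without resistant 2.

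ZNF genes, most of which encode zinc finger repressors, were lower in 150 and higher in 39 of 474 tested of 512, or 31.6% and 8.23%, with a median of -0.39. On chromosome 19, 82 of 231 were lower and 9 higher, and on the other chromosomes 68 of 243 and 30, while of 1150 other genes of chromosome 19, 129 were lower and 127 higher. The lower count was 103, 103, 130 and 98 and the higher count 17, 19, 25 and 25 without sensitive 1, sensitive 2, resistant 1 and resistant 2. Polycomb and DNA methylation genes had 3 higher and 10 lower of 24 tested of 25, with a median of -0.37 that was -0.20 without resistant 2. Besides EED, BMI1, a ring finger subunit of polycomb repressive complex 1, fell from 306 and 327 to 101 and 110.0 CPM (log2 fold change -1.58 ± 0.15, adjusted p = 2.42e-05), and its paralog PCGF2 by 0.92. Here the lower count was 3, 3, 5 and 3, and the higher count 1 without sensitive 1 or sensitive 2. Of 18 histone deacetylases, sirtuins such as SIRT7 included, 2 were higher and 4 lower. HDAC9 went from 14.1 and 16.5 to 51.2 and 54 CPM (log2 fold change 1.78 ± 0.23, adjusted p = 0.000232), SIRT7 fell from 31.1 and 33 to 11.2 and 10.9 CPM (log2 fold change -1.53 ± 0.16, adjusted p = 4.9e-05), and 1 was higher with any library left out. Of the 9 transcription factors that the study names in its text, 1 was higher and 3 lower. The study picked its factors by modelled network activity in single cells, a measure unlike the bulk mRNA level counted here. ATF4 rose by 0.86, and 1, 0 and 1 of the lower ones passed without sensitive 1, sensitive 2 and resistant 2.

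Calls were not spread evenly over the chromosomes. On chromosomes 16, 20 and 22, 29.4%, 36.2% and 32.9% of tested genes were higher and 3.82%, 3.58% and 2.49% lower. On chromosome X 15.8% were higher and 29.8% lower, and on chromosome 12 these shares were 15% and 26.1%. In windows of 10 Mb (GENCODE 44 coordinates), more than 50% of tested protein-coding genes were lower in 16 of 278 windows and higher in 14. At the start of chromosome 11, from 0 to 10 Mb, 72 of 109 were lower and 6 higher. From 40 to 50 Mb 40 of 47 were lower and 4 higher. On chromosome 7 from 70 to 80 Mb, 45 of 58 were higher and 0 lower. LDHA, EIF4G2, ATG13 and DDB2, which fell, lie on chromosome 11, and so do NCAM1 and SYTL2, which rose. SYTL2 lies outside both chromosome 11 windows given above, between 80 and 90 Mb, where 6 of 21 were higher and 5 lower. From 110 to 120 Mb on chromosome 11, 27 of 82 were higher and 2 lower. MDH2 and CLDN4 lie on chromosome 7. The number of gene copies was not measured, and its part in these changes was not tested.

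**Figure D5:**
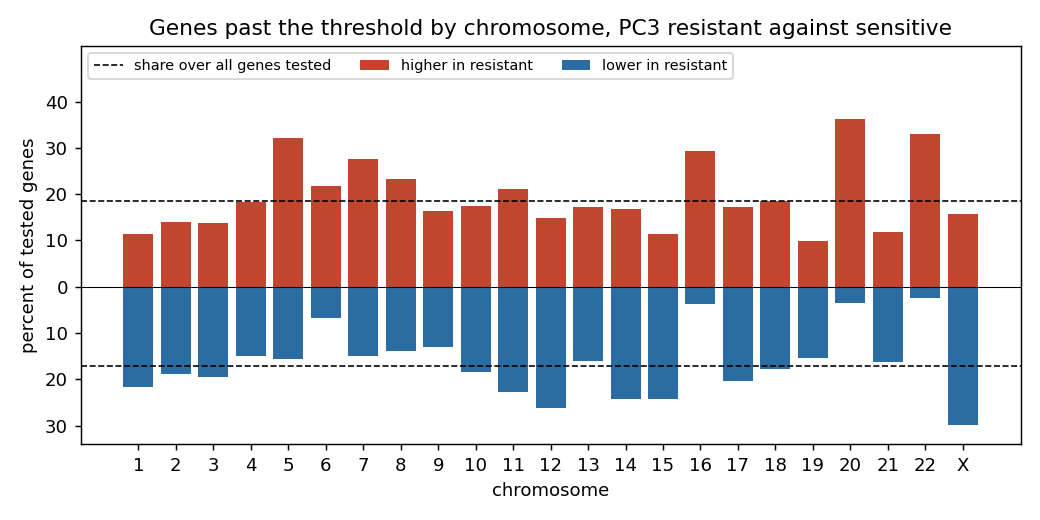
For chromosomes 1 to 22 and X, the bars give the percent of tested genes higher (red, upward) and lower (blue, downward) in resistant PC3 cells, with the shares over all genes, 18.6% and 17%, as dashed lines. Chromosomes 16, 20 and 22 stand above the line for higher genes with few lower ones, and chromosome X below the line for lower ones.

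Most of the leading changes by fold differed in size or direction from those of DU145. The PC3 difference was tested against the DU145 difference for each gene, and 6951 of 20238 genes, or 34.3%, differed. Of the 7196 genes past the threshold in PC3, 4467 differed, or 62.1%. With opposite signs, 1407 genes passed in both lines, or 6.95% of all tested. Among the 15 largest rises of PC3 14 differed from DU145, and among the 15 largest falls 12. These genes were ranked by their PC3 change, which also enters the test, so a difference is in part built in. In DU145, 2 of these rises passed in the same direction and 3 in the opposite one, and of these falls 4 and 2. Of the 10 largest gains of CPM 5 differed, and of the 10 largest losses 7. Of these gains 4 passed in DU145 in the same direction and 2 in the opposite one, and of these losses 4 and 1. DSP rose in PC3 and fell in DU145, from 189 and 179.7 to 43.3 and 60.3 CPM, with a difference between the lines of 8.28 on the log2 scale (adjusted p = 2.2e-07). MYL9 fell in PC3 and rose in DU145, from 89.5 and 58.9 to 756 and 333 CPM (difference -6.65, adjusted p = 1.45e-05). BMI1 fell in PC3 and rose in DU145, from 35.7 and 27.8 to 103 and 97 CPM (difference -3.24, adjusted p = 2.5e-06). For other genes no difference between the lines passed the test. PLAU rose by 0.97 in PC3 and 0.88 in DU145 (adjusted p of the difference = 0.819), ITGB1 changed by -0.89 and -1.09 (0.568), and ERBB2 by -1.14 and -0.91 (0.366).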

How the data were processed

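For each library the authors deposited a file of raw, not normalized read counts per gene, made per the labels after alignment to hg38 with Bowtie. Reads have no molecular identifiers. SMART-seq libraries were made from total RNA. The sources used here name no counter, annotation or strand setting. Groups follow the labels. All 8 libraries were fitted with a mean per group in edgeR 4.0.16 (R 4.3.3) after filterByExpr, which left 20238 of 60554 genes, and TMM scaling (factors 0.951 to 1.04). The common biological coefficient of variation was 17.1% on 4 residual degrees of freedom. PC3 resistant minus sensitive, and its difference from DU145, were tested by quasi-likelihood with Benjamini-Hochberg adjustment at 0.05. Standard errors were derived as the size of the log2 fold change over the root of F. Biotypes and coordinates came from GENCODE 44, symbols from the files.

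The libraries, lists, families and rules were chosen with earlier results of these data known. The rule for names took the 15 largest rises and falls (protein coding, mean of at least 10 CPM, no overlap). The 10 largest gains and losses of CPM (protein coding, not mitochondrially encoded) were named too. The rest were up to 10 switched genes and 5 lncRNAs per direction, up to 4 members per list and direction, and flanks of runs. Members whose call was lost without 1 library were counted and mostly not named, and a few genes that the rule names are not reported here. In 5 simulated draws of the PC3 comparison, 200 genes were changed per draw and 19370 to 19434 genes were tested. Of the genes with a 2-fold change 190 of 483 were recovered, and of those with a 4-fold change 393 of 490. Of 631 calls 48 were false. The draws held far fewer changed genes than the 7196 past the threshold in PC3, so these shares need not hold for the data. Alternatives were RLE scaling, DESeq2 1.42.0, other count filters, the PC3 libraries alone, a replicate block, each PC3 library left out, an adjusted p under 0.01 and a limit of 1 on the log2 scale.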

Additional observations from a re-analysis of the deposited data

Results flagged for a closer look

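Of the 146 genes past the threshold whose fold change is given in the report, 114 differed between PC3 and DU145 by the test of the difference itself, and 37 of them passed in both lines with opposite signs. Over all genes, 34.3% of those tested and 62.1% of the 7196 past the threshold in PC3 differed between the lines, and 1407 of these 7196, or 19.6%, passed in both with opposite signs, which is 6.95% of all tested. The numbers that follow are the PC3 change minus the DU145 change on the log2 scale, each past an adjusted p of 0.05 in the edgeR fit on all 8 libraries. Lower in resistant PC3 and higher in resistant DU145 were NID1 (-9.17), EED (-7.02), MYL9 (-6.65), PICALM (-6.18), CSF2 (-5.02), SPRY4 (-4.07), ZEB2 (-3.91), FGF2 (-3.70), BMI1 (-3.24), TPM2 (-3.02), SPHK1 (-2.64), TUBA4A (-2.54), PLS3 (-2.12), ERCC2 (-1.86), ITGB5 (-1.58), VIM (-1.46), PXN (-1.40) and XIAP (-1.29). Higher in resistant PC3 and lower in resistant DU145 were H19 (12.38), RCAN2 (10.92), CALB2 (10.05), ESRP1 (9.44), ADGRL2 (9.43), CDH1 (8.29), DSP (8.28), CYP24A1 (6.41), CYP1B1 (5.90), GALNT12 (5.46), TGM2 (4.73), ADAM23 (4.53), MAP2 (4.30), CLDN4 (3.84), MDH2 (2.43), IGF1R (2.22), COL6A1 (2.01), VEGFB (1.86) and ATF4 (1.44). The genes were named for their change in PC3, and what sets the lines apart was not tested.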

How the results depend on the processing

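With each PC3 library left out in turn, 2349 to 3061 genes were higher and 1983 to 2480 lower. At an adjusted p under 0.01, 2385 were higher, 1976 lower and 4073 differed between the lines. With a limit of 1 on the log2 scale 1352 were lower. RLE scaling, DESeq2, no filter, a limit of 1 CPM in 2 libraries and the PC3 libraries alone left the higher and lower counts within 1.5 times their value, at 3426 to 4290 higher and 3231 to 3890 lower. All of these but the PC3 libraries alone, which hold no DU145, gave 6645 to 7164 genes that differed between the lines. Genes on in only 1 group numbered 171 in resistant and 36 in sensitive cells with a limit of 0.5 CPM, and 4 and 0 with a limit of 0 counts.

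Whether same-numbered libraries were paired is not known. Deviations of same-numbered PC3 libraries had a correlation of 0.0861. With 2 libraries a group the 2 pairs mirror each other, so this single value cannot decide on a pairing. With replicate number as a block, 4350 genes were higher, 4188 lower and 8270 differed between the lines. Without the block these counts were smaller, at 3755, 3441 and 6951, so an effect shared by replicate number may be present. The block ended no call of a gene whose fold change is given. Of the 146 such genes past the threshold, 0 lost their call or turned under any of the 10 fits, but they were named in part for that. With 2 libraries a group, 39.3% of simulated 2-fold changes were recovered. Each draw held 200 changed genes, far fewer than the 7196 past the threshold in PC3, so the share in these data may differ. A gene that did not pass may still have changed.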
